A study of Saccharomyces cerevisiae with 48 samples.

Results

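The comparison asks whether budding yeast cells that lack Cdk1 activity recover from a sudden move to 37 °C in the same way as cells that have it, over about the first hour. For each gene, the early change is the mean log2 level of a late window minus that of an early window. In the cdc28-4 strain the late window is 50 and 70 min and the early window 10 and 30 min, and in the wild type they are 45 and 60 min against 15 and 30 min. The quantity reported is the difference of changes, coded as wild type minus cdc28-4, so a positive value means that the wild-type change was the higher of the pair. It draws on 12 of the series' 48 samples: 8 cdc28-4 arrays, from 2 replicate time courses, and 4 wild-type arrays, from 1 time course. No measured value was used to choose the samples.

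The cdc28-4 cells are strain BF264-15DU of mating type a with the cdc28-4 allele, which makes Cdk1, the CDC28 product, fail at high temperature, and are labelled as having no Cdk activity. The wild-type cells are BF264-15DU of mating type a that carry bar1, a mutation of the gene for the secreted protease Bar1, which cuts alpha-factor, and are labelled as having Cdk activity. Cells of both strains grew at 25 °C in YEPD, a rich glucose medium, small daughter cells were collected by centrifugal elutriation, and time 0 is when they entered YEPD already at 37 °C. The controls thus went through elutriation and the temperature shift too, and there are no unshifted samples in either strain. Wild type has a single course with 1 array per time, so its own spread between cultures is unknown. Per the labels, samples 1 to 33 were labelled with a One Cycle kit and samples 34 to 48 with a MessageAmp Premier kit, which in listing order are the cdc28-4 and the wild-type samples. A constant offset of a probe set between the kits cancels in the difference of changes, whereas a kit difference in the slope of the signal would not, and kit and strain cannot be told apart. The windows are also not the same: their centres lie 40 min apart in cdc28-4 and 30 min apart in wild type, and 30 min is the 1 time sampled in both.

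On these arrays 5449 genes were measured as fluorescence intensities, and a gene was called when its adjusted p from limma was under 0.05. The median intensity of an array was 394 to 412 in cdc28-4 and 400 to 428 in wild type, and 94.2% to 96.3% of genes against 91.9% to 93.8% lay above background, which is the 95th percentile of fission yeast probe sets with no target in these cells. The SD of log2 levels over genes was 1.45 to 1.50 on cdc28-4 arrays and 1.45 to 1.51 on wild-type arrays. The log2 signal of 3' over 5' probe sets of the control genes, which reflects RNA and labelling length, was 0.525 to 0.711 in cdc28-4 and 1.16 to 1.22 in wild type, and varied little along each course (0.666 to 0.711 in cdc28-4 course 1 and 0.525 to 0.581 in course 2). Markers of mating type a were high in both strains, as for STE2, the alpha-factor receptor, at a median of 13.29 and 12.76 in cdc28-4 and wild type, while the 4 alpha-specific genes were mixed: medians were 7.69 and 7.11, under background, for the alpha-factor gene MF(ALPHA)1, 8.62 and 7.77 for MF(ALPHA)2, 8.46 and 8.31 for the a-factor receptor STE3, and 9.91 and 10.00, above background in both, for SAG1, the alpha agglutinin. In cdc28-4 the medians of MF(ALPHA)2 and STE3 also lay above background. BAR1 itself stood at 11.72 to 12.88 in cdc28-4 and at 7.50 to 7.69, under background, in wild type, the strain whose genotype lists bar1. Of its neighbours in RefSeq gene order, SNL1 and YIL014C-A were also under background in wild type (7.29 to 7.85 and 6.85 to 7.25) and well above it in cdc28-4 (9.74 to 10.32 and 9.53 to 10.94). The part of the bar1 allele in those low levels was not tested.

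Moving growing yeast to high temperature sets off several programmes at once. Hsf1 induces chaperones, which keep proteins folded, Msn2 and Msn4 induce general stress genes, and Rpn4 induces the proteasome, which degrades damaged proteins, while ribosome production is shut down, and these responses pass as cells adapt. Small daughter cells also have a cell cycle to start: in G1 the cyclin Cln3 with Cdk1, encoded by CDC28, relieves the repressor Whi5, and the factors SBF (Swi4 and Swi6) and MBF (Mbp1 and Swi6) switch on genes for budding and DNA replication, after which histone genes and, later, the CLB2 cluster of mitotic genes follow.

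Both strains changed much of their transcriptome between the windows. In cdc28-4, 3957 genes (72.6%) passed the test, of which 2230 (40.9%) rose and 1727 (31.7%) fell. In wild type 3361 (61.7%) passed, of which 1815 (33.3%) rose and 1546 (28.4%) fell. The change, with its sign, differed between the strains for 1095 genes, 20.1% of those tested: the difference was positive for 585 (10.7%) and negative for 510 (9.36%). Most differences were small, with a median size of 0.44 and 45 genes at a log2 difference of 1 or more, 42 of them positive and 3 negative. Pairing the cdc28-4 arrays by course, which the replicate numbers allow, gave 1825 calls, 936 positive and 889 negative, but taking 1 early change per course, which pairs them too, gave 1241, 682 positive and 559 negative. With 30 min as the only start, calls fell to 312, and without the wild-type 60 min array to 365.

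Among the 585 positive genes, 123 fell in both strains but further in cdc28-4, and 140 rose in both but less in cdc28-4. A further 156 changed by the test in cdc28-4 but not in wild type, 119 in wild type but not in cdc28-4, and 47 fell in cdc28-4 and rose in wild type, 0.863% of genes tested. Among the 510 negative genes, 81 rose more in cdc28-4, 82 fell less in cdc28-4, 156 passed in cdc28-4 alone and 129 in wild type alone. In 60 genes (1.10%) levels rose in cdc28-4 and fell in wild type, and for 2 neither change passed.

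**Figure D1:**
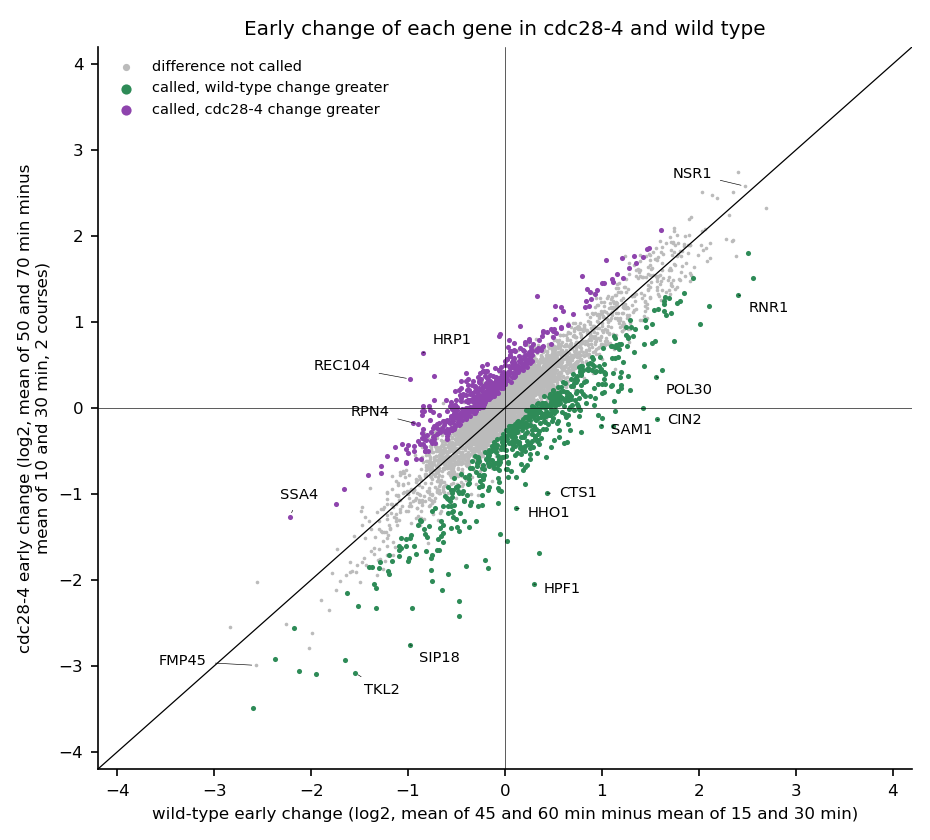
Early change of each of the 5449 genes (log2) in cdc28-4 (vertical axis, mean of 2 courses) and in wild type (horizontal axis, 1 course), with genes whose difference was called in green (585, wild-type change higher) and purple (510, cdc28-4 change higher) and the line of equal change in black. The genes farthest from the line, such as HPF1, SIP18 and CIN2, lie below it, where the wild-type change is the higher.

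The largest positive differences included stress genes that fell further in cdc28-4 than in wild type. They also included a cell wall gene, HPF1, that fell in cdc28-4 alone. Levels are log2 intensities in time order, 10, 30, 50 and 70 min for cdc28-4 and 15, 30, 45 and 60 min for wild type. SIP18, a hydrophilin of desiccation and osmotic stress, stood at 11.35, 13.28, 10.63 and 8.54 in cdc28-4 course 1 and 11.06, 13.03, 10.16 and 8.37 in course 2, against 9.16, 9.03, 8.39 and 7.83 in wild type. On all 4 early cdc28-4 arrays it lay above every other array of either strain, with the peak at 30 min, and no such peak was seen in wild type, where the late window was under background. Its changes were -2.75 in cdc28-4 and -0.98 in wild type, a difference of 1.77 (SE 0.21, adjusted p = 0.00284). The wild-type fall of SIP18 is a lower bound and the difference an upper one, since the late wild-type level is not measurable. For TKL2, a stress-induced transketolase, the levels were 13.06, 13.81, 10.87 and 9.47 in cdc28-4 course 1 and 12.82, 13.22, 10.66 and 9.60 in course 2, against 10.60, 10.49, 9.12 and 8.87 in wild type. Here too the 4 early cdc28-4 arrays were the highest, and the changes of -3.08 in cdc28-4 and -1.55 in wild type differ by 1.53 (SE 0.22, adjusted p = 0.00493). RCK1, a protein kinase of the oxidative stress response, and DSF1, a relative of mannitol dehydrogenases, were high at 10 min in cdc28-4 (11.36 and 11.85 for RCK1, 11.68 and 12.03 for DSF1) and had fallen by 30 min. In wild type both window means of both genes were under background, as was the late mean of RCK1 in cdc28-4, so their differences of 1.76 and 1.69 set a measured fall against levels with no measurable change. The same holds in wild type for SHH3, a paralog of the succinate dehydrogenase subunit gene SDH3, at 1.57.

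HPF1, which encodes a cell wall mannoprotein, had the largest difference, 2.35 (SE 0.66, adjusted p = 0.0419). Its levels were 11.87, 11.79, 10.09 and 8.90 in cdc28-4 course 1 and 12.44, 12.71, 11.42 and 10.20 in course 2, against 10.47, 11.11, 11.06 and 11.12 in wild type. It fell in both cdc28-4 courses, although these differed by more than 1 log2 unit at 50 and 70 min, and its call was made under 13 of 23 alternatives. YNL058C, an uncharacterised gene, had changes of -1.68 in cdc28-4 and 0.35 in wild type and a difference of 2.03 (SE 0.28, adjusted p = 0.00435), and YHR022C, also uncharacterised, -1.76 in cdc28-4 and -0.20 in wild type with 1.56 (SE 0.23, adjusted p = 0.00515). SPG4, needed for survival in stationary phase at high temperature, had changes of -2.42 in cdc28-4 and -0.48 in wild type with 1.94 (SE 0.37, adjusted p = 0.0115). All 3 kept their calls under every alternative tried.

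CIN2, which acts in the folding of tubulin, stood apart from these, since its difference came from a rise in wild type. It was at 8.86, 8.11, 8.29 and 8.46 in cdc28-4 course 1 and 8.74, 8.16, 8.25 and 8.33 in course 2, against 8.93, 8.86, 10.08 and 10.85 in wild type. The 45 and 60 min wild-type arrays were above all others, and the cdc28-4 arrays spanned less than 1 log2 unit. The changes were -0.13 in cdc28-4 and 1.57 in wild type, and the difference was 1.70 (SE 0.090, adjusted p = 0.000252).

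The most negative differences belonged to genes that rose in cdc28-4 and fell in wild type. HRP1, which encodes an RNA-binding subunit of the machinery that forms mRNA 3' ends, stood at 11.18, 11.55, 11.80 and 12.09 in cdc28-4 course 1 and 11.30, 11.18, 11.81 and 12.07 in course 2, against 11.85, 12.20, 11.40 and 10.95 in wild type. In both cdc28-4 courses the late arrays were above the early ones, in wild type they were below, and the windows did not overlap in either strain. The changes were 0.64 in cdc28-4 and -0.85 in wild type, a difference of -1.49 (SE 0.14, adjusted p = 0.00138). Levels of RNA14, another subunit of that machinery, were 9.58, 9.86, 9.99 and 10.17 in cdc28-4 course 1 and 9.56, 9.82, 9.99 and 10.14 in course 2, against 10.32, 10.32, 9.77 and 9.41 in wild type, with non-overlapping windows of opposite order in the 2 strains. Its difference was -1.10 (SE 0.070, adjusted p = 0.000252). REC104, known for meiotic recombination, was at 8.98, 9.31, 9.50 and 9.43 in cdc28-4 course 1 and 8.92, 9.14, 9.38 and 9.39 in course 2, against 10.83, 10.52, 9.79 and 9.60 in wild type. It differed by -1.31 (SE 0.098, adjusted p = 0.000596), and these 3 calls held under all 23 alternatives.

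MMS4, a subunit of a DNA structure-specific nuclease, and YAR1, which encodes a chaperone of the ribosomal protein Rps3, fell in wild type with little net change in cdc28-4. The changes of MMS4 were 0.02 in cdc28-4 and -0.78 in wild type, with a difference of -0.81 (SE 0.11, adjusted p = 0.00446). Those of YAR1 were 0.02 in cdc28-4 and -0.84 in wild type, with -0.86 (SE 0.11, adjusted p = 0.00385), and its call was lost without the wild-type 15 min array. SSP2, a sporulation gene, rose by 1.30 in cdc28-4 against 0.33 in wild type, where it lay under background in both windows. HUR1, linked to hydroxyurea resistance, had a difference of -0.91 (SE 0.27, adjusted p = 0.0496), just inside the threshold, and was called under 12 of 23 alternatives. YIL014C-A, at -0.89, is the neighbour of BAR1 described above and was under background in wild type, so no fold change is read there. YNL042W-B, an uncharacterised gene at -0.82, was under background in both cdc28-4 windows and in the late one of wild type. The call of MMS4 was lost with 30 min as the only start (adjusted p = 0.0501).

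**Figure D2:**
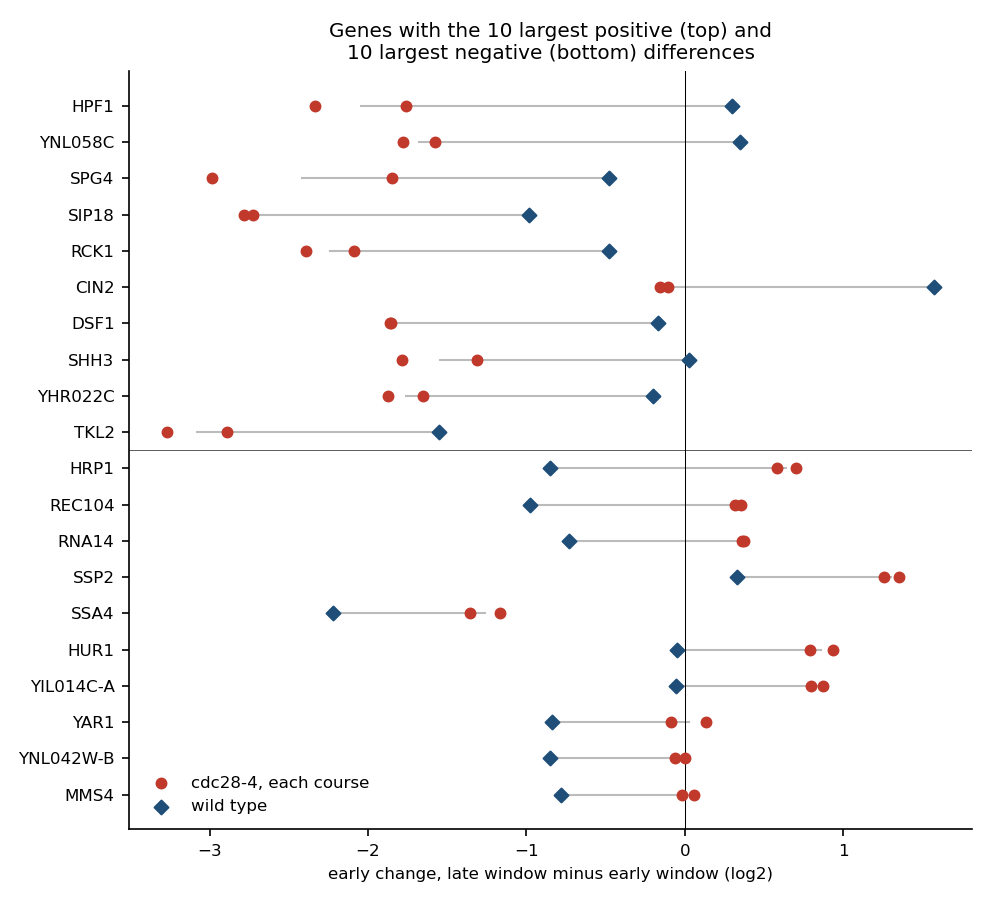
Early change (log2, late minus early window) of the genes with the 10 largest positive and 10 largest negative differences, with a red point for each of the 2 cdc28-4 courses and a blue diamond for the single wild-type course. By the rule that chose them, both cdc28-4 points of a gene lie on the same side of the wild-type diamond; the cdc28-4 points of HPF1 and SPG4 are spread more widely than those of CIN2 or HRP1.

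Chaperone genes had lower changes in wild type than in cdc28-4. Of the 17 genes for Hsp70 proteins, their Hsp40 partners and exchange factors, 9 had a negative and 1 a positive difference, with a median of -0.33, against a median of -0.01 over all genes. The 14 Hsp90 and co-chaperone genes gave 8 negative and 0 positive calls (median -0.29). Median changes were 0.04 in cdc28-4 and -0.38 in wild type for the Hsp70 and Hsp40 genes, and 0.09 and -0.15 for the Hsp90 genes. SSA4, the most heat-inducible Hsp70, stood at 14.31, 14.43, 13.25 and 12.78 in cdc28-4 course 1 and 14.24, 14.26, 13.12 and 13.04 in course 2, against 13.96, 13.60, 11.96 and 11.16 in wild type. It fell at every step after 30 min in both strains, and the 2 late wild-type arrays were lower than every cdc28-4 array. Its late level was 2.40-fold under its early level in cdc28-4 and 4.65-fold under it in wild type, a log2 difference of -0.96 (SE 0.13, adjusted p = 0.00404), which lost its call without the wild-type 60 min array (adjusted p = 0.0617). Leaving out 1 array at a time, negative calls ran from 3 (without the wild-type 60 min array) to 9 (without the cdc28-4 30 min array of course 1) among the Hsp70 and Hsp40 genes and from 2 (without the wild-type 60 min array) to 10 (without the wild-type 15 min array) among the Hsp90 genes.

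SSA3, another inducible Hsp70, had changes of -0.94 in cdc28-4 and -1.66 in wild type, with a peak at 30 min in both strains and a difference of -0.72 (SE 0.14, adjusted p = 0.013). HSP82, the inducible Hsp90, stood at 14.01, 14.16, 14.05 and 13.89 in cdc28-4 course 1 and 13.87, 14.07, 13.95 and 13.89 in course 2, against 13.96, 13.82, 13.34 and 13.09 in wild type. In cdc28-4 no array departed from the others by more than about 0.3, while in wild type both late arrays lay under both early ones, and the difference was -0.60 (SE 0.091, adjusted p = 0.00567). STI1, which links Hsp70 to Hsp90, had changes of -0.02 in cdc28-4 and -0.52 in wild type and a difference of -0.49 (SE 0.084, adjusted p = 0.00838). CNS1, an essential Hsp90 co-chaperone, rose in both strains, by 1.37 in cdc28-4 and 0.95 in wild type. The 1 positive Hsp70 call was SSB1, a ribosome-bound Hsp70, at 0.41, named after its value was seen, as the exception. SNL1, an exchange factor gene with a negative call at -0.69, is the neighbour of BAR1 that lay under background in wild type, and without it 8 of the others were negative. PPT1, an Hsp90-linked phosphatase, and SSE2, an Hsp70 exchange factor, changed strongly in both strains without a called difference (0.21 and -0.23, adjusted p = 0.373 and 0.326). SSA3 (then at -0.50) and CNS1 (then at -0.21) were not called without the wild-type 30 min array, and SSA3 (then at -0.14), STI1 (then at -0.39), CNS1 (then at -0.26) and SNL1 (then at -0.61) were not called without the 60 min array. From 30 min as the only start SSA3 was at -0.10, and HSP82, STI1 and CNS1 were not called.

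Lists of other folding factors also had more negative than positive calls. Small heat shock and disaggregase genes had 4 negative calls and 1 positive call among 9 (median -0.29), with BTN2 and CUR1, which sort misfolded proteins, at -0.64 and -0.61 and the small heat shock protein HSP42 at -0.62. BTN2 (then at -0.27), CUR1 (then at -0.19) and HSP42 (then at -0.20) were not called without the wild-type 15 min array, and BTN2 (then at -0.33) and HSP42 (then at -0.46) were not called without the 60 min array. Negative calls in that list ran from 1 (without the wild-type 15 min array) to 6 (without the wild-type 45 min array) over single arrays left out. HSP42 fell by 1.12 in cdc28-4 and by 1.74 in wild type on the log2 scale. HSP30, a plasma membrane protein of heat shock, was at 13.42, 9.54, 9.43 and 9.95 in cdc28-4 course 1 and 13.69, 10.18, 10.05 and 10.34 in course 2, against 14.05, 13.36, 12.62 and 12.16 in wild type. Its high level lasted to 60 min in wild type and was gone by 30 min in cdc28-4, but the window difference of 0.45 did not pass (adjusted p = 0.345; with the arrays paired by course it passed). Of 13 endoplasmic reticulum genes, 7 were negative and 0 positive (median -0.25), led by SCJ1 and LHS1, chaperones of the lumen, at -0.69 and -0.57. SCJ1 rose by 0.72 in cdc28-4, against a change of 0.03 in wild type. Mitochondrial chaperones gave 3 negative calls of 8, with MDJ1, a mitochondrial Hsp40, at -0.68, MGE1, the Hsp70 exchange factor of mitochondria, at -0.36 and HSP10, the partner of Hsp60, at -0.27. MDJ1 (then at -0.24) and HSP10 (then at -0.28) were not called without the wild-type 15 min array, MGE1 (then at -0.16) and HSP10 (then at -0.26) were not called without the 30 min array, and MGE1 (then at -0.23) and HSP10 (then at -0.21) were not called without the 60 min array. HSP10 was also not called without 1 or more single cdc28-4 arrays. Leaving out 1 array at a time, negative calls ran from 1 (without the wild-type 60 min array) to 7 (without the cdc28-4 30 min array of course 1) in the endoplasmic reticulum list. LHS1 (then at -0.35) was not called without the 60 min array, nor was it or SCJ1 with 30 min as the only start. HSF1, the gene of the heat shock factor, was not called (-0.14, adjusted p = 0.394).

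Most proteasome genes fell in wild type, and few did in cdc28-4. Of 35 measured, 18 differences were negative and 0 positive, with a median of -0.31. In cdc28-4 11 members rose and 4 fell, with a median change of 0.07. In wild type 0 rose and 25 fell, with a median of -0.27. The median level of the list was 12.12, 12.74, 12.51 and 12.32 in cdc28-4 course 1 and 12.09, 12.68, 12.48 and 12.43 in course 2, against 12.51, 12.85, 12.56 and 12.20 in wild type, so that it peaked at 30 min in all 3 courses. The 10 min cdc28-4 arrays, taken 5 min before the first wild-type array, were the lowest of their courses, and with 30 min as the only start the median was -0.19 with 1 call. Without the wild-type 60 min array it was -0.14 with 1 call, without the 30 min array -0.09 with 2, without the 15 min array -0.51 with 32, and with interpolated times -0.30 with 15 calls.

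RPN4, the gene of the factor that drives proteasome genes, stood at 12.60, 12.74, 12.51 and 12.47 in cdc28-4 course 1 and 12.61, 12.70, 12.48 and 12.44 in course 2, against 13.47, 12.92, 12.44 and 12.17 in wild type. It was highest on the first wild-type array and varied by less than 0.4 over the cdc28-4 arrays. The changes were -0.19 in cdc28-4 and -0.89 in wild type, and the difference of -0.70 (SE 0.071, adjusted p = 0.00184) was called under all 23 alternatives. RPN8, a lid subunit, rose by 0.15 in cdc28-4 and fell by 0.40 in wild type, a difference of -0.55 (SE 0.080, adjusted p = 0.00515). RPN6, another lid subunit, differed by -0.49 (SE 0.099, adjusted p = 0.0148). RPN6 (then at -0.26) was not called without the wild-type 30 min array, and RPN8 (then at -0.22) and RPN6 (then at -0.24) were not called without the 60 min array.

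General stress genes fell in both strains, and where the difference was called the larger fall was in cdc28-4, whose windows lie further apart. Of 39 targets of Msn2 and Msn4, 37 fell in cdc28-4 and 35 in wild type, with median changes of -1.61 and -1.09. The difference was positive for 16 and negative for 0 (median 0.37). Against cdc28-4 course 1 alone the list median was 0.54, and against course 2 alone 0.20. CTT1, the cytosolic catalase, was at 13.98, 13.73, 10.72 and 10.37 in cdc28-4 course 1 and 13.93, 13.22, 10.90 and 10.64 in course 2, against 12.91, 11.82, 10.30 and 10.17 in wild type. Every late array lay under every early one in both strains, the 10 and 30 min cdc28-4 arrays were the highest, and the changes of -3.06 in cdc28-4 and -2.13 in wild type differ by 0.93 (SE 0.20, adjusted p = 0.0169). FMP45, a membrane protein gene with changes of -2.99 in cdc28-4 and -2.57 in wild type, fell by the most among list members whose difference did not pass (0.42, adjusted p = 0.138). The values of this list moved with the times and arrays used. With cdc28-4 interpolated to the wild-type times the median was 0.03 and 7 calls were left. Without the wild-type 45 min array the median was 0.03 too, with 12 positive and 2 negative calls. The part of the window spacing in the difference was not tested. Without 1 array at a time, positive calls ran from 12 (without the cdc28-4 10 min array of course 1) to 19 (without the wild-type 60 min array), and the call of CTT1 was lost with interpolated times and without the wild-type 30 min array.

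MSN4 itself differed by 0.76 (SE 0.12, adjusted p = 0.00618), with changes of -1.13 in cdc28-4 and -0.36 in wild type, whereas MSN2 did not pass (0.24, adjusted p = 0.0643; it passed with the course as a block but not with 1 change per course, adjusted p = 0.0968). Genes of the storage carbohydrates trehalose and glycogen fell in 18 of 20 cases in cdc28-4 and in 18 in wild type, with 3 positive calls and 1 negative call, against 5 positive and 2 negative when paired by course. The share called without pairing was about that over all genes, 20.1%. The list median was 0.43 against cdc28-4 course 1 alone and 0.07 against course 2 alone. The 3 positive calls were GLG1 and GLG2, the self-glucosylating initiators of glycogen, at 0.51 and 1.03, and GSY2, glycogen synthase, at 0.79. GLG2 fell by 1.11 in cdc28-4, against a change of -0.07 in wild type. Antioxidant genes had 5 positive calls and 1 negative call of 24, where 10.7% of all genes were positive and 9.36% negative. The positive calls included GPX1, a glutathione peroxidase, at 0.76, CTT1, and CTA1, the peroxisomal catalase, at 0.96. The negative call was YAP1, the oxidative stress factor, at -0.68, named after its value was seen. CTA1 was under background in the late wild-type window. MSN4 (then at 0.43) and CTA1 (then at 0.80) were not called without the wild-type 30 min array, and GSY2 (then at 0.86) and CTA1 (then at 0.99) were not called without the 60 min array. CTA1 was also not called without 1 or more single cdc28-4 arrays. With 30 min as the only start, MSN4 (then at 0.33), GLG1 (then at 0.25), GSY2 (then at 0.54) and CTA1 (then at 1.09) were not called.

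Ribosome assembly genes rose in both strains, and few of them had a called difference. Of 55 genes for assembly of the small subunit, 54 rose in cdc28-4 and 53 in wild type, with median changes of 1.61 and 1.60. The difference was negative for 3 and positive for 0, below the share over all genes (median -0.02). NSR1, nucleolin of yeast, stood at 9.30, 9.75, 12.08 and 12.34 in cdc28-4 course 1 and 9.00, 9.88, 11.75 and 12.07 in course 2, against 8.92, 9.64, 11.42 and 12.10 in wild type. All late arrays were more than 1 log2 unit above all early ones in both strains, and the changes of 2.58 in cdc28-4 and 2.48 in wild type gave a difference of -0.10 (SE 0.18, adjusted p = 0.721), which did not pass. For 55 large-subunit genes, 6 differences were negative, about the negative share over all genes of 9.36%, and 1 was positive (median -0.10). For 127 cytosolic ribosomal proteins 1 was negative and 2 were positive (median -0.01). Many of these proteins are near-identical pairs that a probe set may not separate. These medians turn with the time matching: interpolated, the small-subunit list had 0.19 with 12 positive and 2 negative calls, and the large-subunit list 0.15. The small-subunit list had 2 positive and 9 negative when paired by course, and the large-subunit list 3 positive and 10 negative when paired by course. Without the wild-type 30 min array the small-subunit median was 0.29 with 23 positive calls, and without the 15 min array -0.41 with 25 negative calls. The sign of the medians also turned with the cdc28-4 course used. Against course 1 and course 2 they were -0.18 and 0.10 for the small subunit and -0.21 and 0.02 for the large subunit. For the ribosomal proteins they were -0.10 and 0.09. In each of the 2 assembly lists 18 of 55 genes had an unadjusted limma p under 0.05. Over all genes 20.1% passed the adjusted threshold, and the share under the unadjusted one, which is at least that, was not counted.

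Single members did differ. NOP7, a large-subunit assembly factor, rose by 1.72 in cdc28-4 and 1.04 in wild type, a difference of -0.68 (SE 0.14, adjusted p = 0.0166). RRN3, the initiation factor of RNA polymerase I, rose by 0.79 in cdc28-4, against a change of 0.04 in wild type, and differed by -0.75 (SE 0.100, adjusted p = 0.00404). ARX1, an export factor of the large subunit, rose by 2.47 in cdc28-4 and 2.14 in wild type with no called difference (-0.33, adjusted p = 0.084; called with the course as a block but not with 1 change per course, adjusted p = 0.0833). RAS1, which carries a growth signal to protein kinase A, rose by 0.54 in cdc28-4 and by 1.22 in wild type, at a difference of 0.68 (SE 0.099, adjusted p = 0.00515). With 30 min as the only start, RAS1 (then at 0.28) and RRN3 (then at -0.47) were not called. NOP7 (then at -0.47) was not called with interpolated times. Mitochondrial ribosomal proteins had 9 negative and 0 positive calls of 73 (median -0.11), against a negative share of 9.36% over all genes, led by MRP2 at -0.44, and 2 positive and 17 negative when paired by course. Negative calls ran from 0 (without the wild-type 30 min array) to 26 (without the wild-type 45 min array) over single arrays left out. MRP2 (then at -0.35) was not called without the wild-type 30 min array, and MRP2 (then at -0.24) was not called without the 60 min array. MRP2 was also not called without 1 or more single cdc28-4 arrays.

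**Figure D3:**
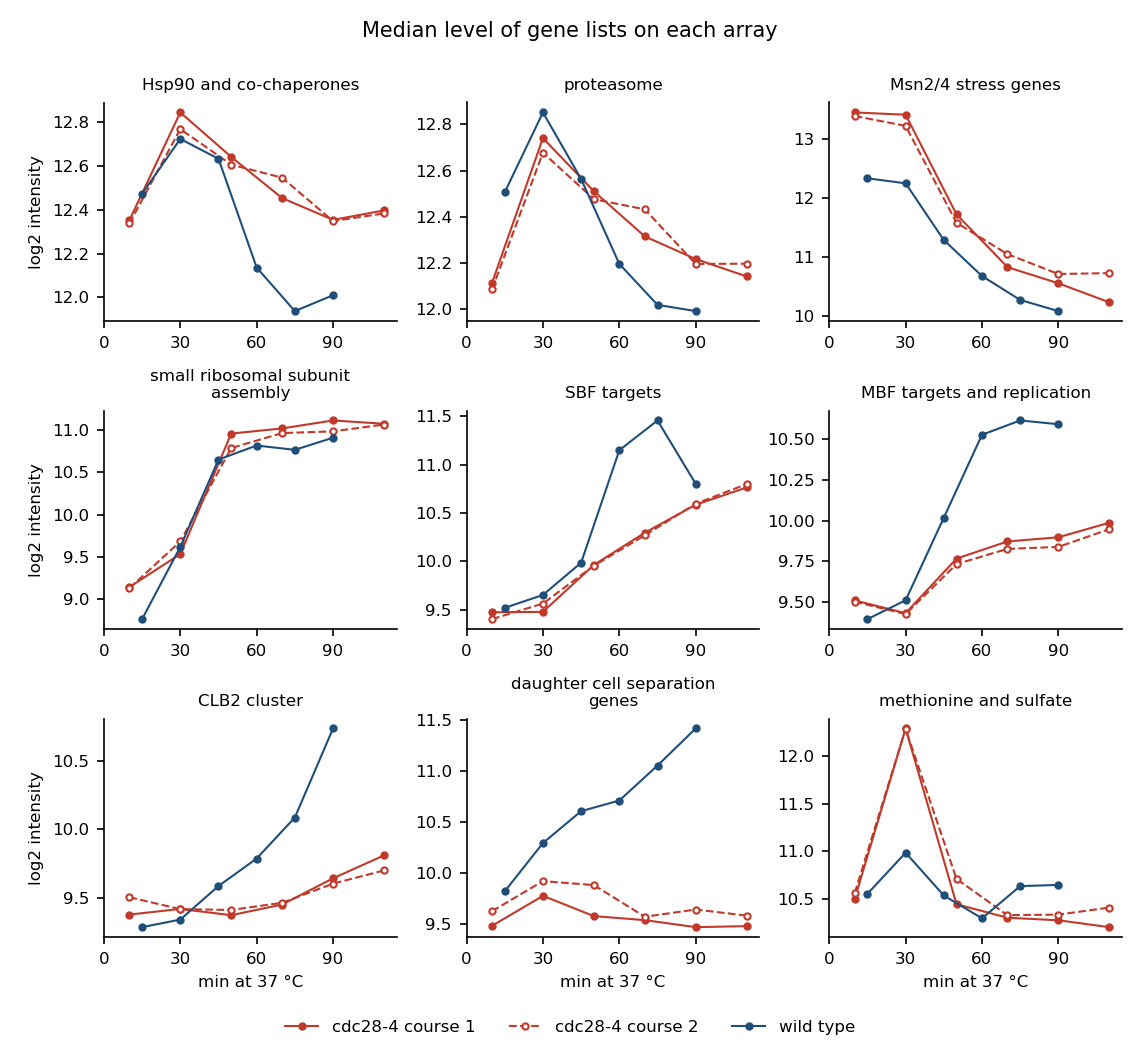
Median log2 intensity of 9 gene lists on each array against minutes at 37 °C, with cdc28-4 course 1 (red, solid), course 2 (red, dashed) and wild type (blue), including the later times. The chaperone and proteasome medians fall lower in wild type after 45 min, the small-subunit medians rise together, and the SBF, MBF, CLB2 and daughter medians rise further in wild type.

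Genes of the G1 to S transition rose further in wild type. Of 22 SBF targets, 16 rose in cdc28-4 and all 22 in wild type, with median changes of 0.61 and 1.06. The difference was positive for 12 and negative for 0 (median 0.42). Of 41 MBF targets and replication genes, 25 differences were positive and 0 negative (median 0.36), with 26 rising in cdc28-4 and 37 in wild type. CLN2, a G1 cyclin gene, was at 9.03, 9.51, 10.10 and 10.50 in cdc28-4 course 1 and 8.98, 9.60, 10.05 and 10.36 in course 2, against 8.03, 8.49, 9.53 and 11.02 in wild type. It climbed through every array in all 3 courses, and the last wild-type array was the highest. Its early wild-type mean was under background, so the wild-type rise is a lower bound. Changes were 0.97 in cdc28-4 and 2.02 in wild type, and the difference was 1.04 (SE 0.087, adjusted p = 0.00108). Without the wild-type 60 min array the SBF median was 0.15 with 3 calls and the MBF median 0.26 with 10, and the call for CLN2 was lost (0.29, adjusted p = 0.116).

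POL30, the sliding clamp of DNA polymerase, stood at 10.42, 10.97, 10.91 and 11.16 in cdc28-4 course 1 and 10.40, 10.89, 10.87 and 11.20 in course 2, against 10.71, 10.91, 11.91 and 12.83 in wild type. Both late wild-type arrays lay above every cdc28-4 array. The changes were 0.36 in cdc28-4 and 1.56 in wild type and the difference 1.20 (SE 0.074, adjusted p = 0.000252). RNR1, the large subunit of ribonucleotide reductase, rose by 1.32 in cdc28-4 and 2.41 in wild type, a difference of 1.09 (SE 0.090, adjusted p = 0.000995), and both genes held their calls under all 23 alternatives. NRM1, the repressor that ends MBF transcription, had both window means under background in cdc28-4 and rose by 0.96 in wild type. YOX1, a repressor of M/G1 genes, differed by 1.17 (SE 0.13, adjusted p = 0.00284), and BUD9, a bud site protein under background in the early wild-type window, by 1.12 (SE 0.12, adjusted p = 0.00229). EXG1, a cell wall glucanase, rose to 12.73 and 13.06 at 30 min in cdc28-4 and then declined, while it climbed to 12.86 at 60 min in wild type. POL3, the catalytic subunit of DNA polymerase delta, and TOS6, a cell wall protein, rose in both strains without a called difference (0.07 and 0.24; TOS6 was called with interpolated times, at 0.43). NRM1 (then at 0.55) and YOX1 (then at 0.50) were not called without the wild-type 60 min array.

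Among the cyclins and Cdk regulators, 5 of 18 had positive differences and 0 negative ones (median 0.16; 7 positive and 1 negative when paired by course). Besides CLN2, the S-phase cyclin gene CLB6 differed by 0.82 (SE 0.14, adjusted p = 0.00742) and the mitotic cyclin gene CLB1 by 1.03 (SE 0.18, adjusted p = 0.00948). WHI5, the G1 repressor, whose early wild-type mean was under background, fell by 0.32 in cdc28-4 and rose by 0.31 in wild type, with 0.63 (SE 0.089, adjusted p = 0.0047). CDC28 itself stood at 11.45, 11.72, 11.32 and 11.58 in cdc28-4 course 1 and 11.39, 11.61, 11.39 and 11.60 in course 2, against 10.55, 10.81, 10.81 and 11.20 in wild type. Its cdc28-4 arrays lay above every wild-type array, across 2 labelling kits, and its change was -0.07 in cdc28-4 and 0.32 in wild type, a difference of 0.39 (SE 0.082, adjusted p = 0.0157). The probe set reads the transcript and does not show the cdc28-4 mutation. CLN1 (0.30, adjusted p = 0.0816), CLN3 (-0.25, adjusted p = 0.0642) and SWE1 (0.31, adjusted p = 0.0503) did not pass. All 3 did with the course as a block, but with 1 change per course CLN1 (adjusted p = 0.0525) and CLN3 (adjusted p = 0.0919) did not. CDC28 (then at 0.26) was not called without the wild-type 15 min array, and CLB6 (then at 0.44) and CDC28 (then at 0.20) were not called without the 60 min array. CLB2, CLB3, CLB4, CLB5, SIC1, CKS1, CAK1, MIH1 and PHO85 did not pass either, with differences from -0.10 to 0.19.

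The mitotic genes of the CLB2 cluster mostly fell in cdc28-4, and about as many rose in wild type. In the CLB2 cluster, 11 of 19 genes fell and 4 rose in cdc28-4, while 10 rose and 0 fell in wild type. The difference was positive for 10 and negative for 0 (median 0.26), and 6 genes were called in opposite directions. ALK1, a haspin-like kinase of mitosis, had changes of -0.26 in cdc28-4 and 0.55 in wild type, a difference of 0.81 (SE 0.11, adjusted p = 0.00404). HOF1, a cytokinesis protein, fell by 0.93 in cdc28-4, to a late mean under background, against a change of -0.08 in wild type. CLB1 fell by 0.39 in cdc28-4 and rose by 0.64 in wild type, while BUD3, a bud site marker, rose by 0.62 in cdc28-4 and 0.60 in wild type. With 30 min as the only start 3 genes were called, and leaving out 1 array at a time gave 9 (without the cdc28-4 10 min array of course 1) to 11 (without the cdc28-4 30 min array of course 1) positive calls.

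Genes of daughter cell separation, whose products free the daughter from its mother, had 10 positive and 0 negative differences of 14 (median 0.73, the highest of the 39 lists). The median changes were -0.21 in cdc28-4 and 0.40 in wild type. CTS1, the chitinase that cuts the septum, stood at 12.15, 10.18, 10.24 and 9.87 in cdc28-4 course 1 and 12.12, 10.74, 10.88 and 10.24 in course 2, against 11.43, 10.93, 11.44 and 11.80 in wild type. In cdc28-4 the 10 min arrays were far above the later ones, and in wild type the level was lowest at 30 min and rose again. Its changes were -0.99 in cdc28-4 and 0.44 in wild type, with 1.43 (SE 0.29, adjusted p = 0.0148), and its call was lost with 30 min as the only start and without the wild-type 60 min array. EGT2, a cell wall glucanase gene, fell by 0.45 in cdc28-4 and rose by 0.48 in wild type, a difference of 0.93 (SE 0.12, adjusted p = 0.00365) called under all alternatives. DSE4 and DSE2, a daughter-specific glucanase and a secreted daughter protein, differed by 1.06 (SE 0.22, adjusted p = 0.0149) and 0.97 (SE 0.26, adjusted p = 0.0366). Leaving out 1 array at a time gave 4 (without the wild-type 60 min array) to 11 (without the cdc28-4 30 min array of course 2) positive calls in the list. DSE4 (then at 0.60) and DSE2 (then at 0.49) were not called without the wild-type 15 min array, and DSE2 (then at 0.80) was not called without the 60 min array. DSE2 was also not called without 1 or more single cdc28-4 arrays.

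Of 9 histone genes measured, 7 fell and 0 rose in cdc28-4, and 3 fell and 0 rose in wild type. The 3 positive calls were HHO1, HTB2 and HTA2, and 0 were negative. HHO1, the linker histone, was at 11.20, 11.03, 9.93 and 9.83 in cdc28-4 course 1 and 11.12, 10.99, 10.04 and 9.88 in course 2, against 10.69, 10.51, 10.39 and 11.03 in wild type. The late cdc28-4 arrays were about 1 log2 unit under the early ones, while in wild type the last array was the highest, and the difference was 1.28 (SE 0.081, adjusted p = 0.000252). HTB2 and HTA2, core histones, differed by 0.71 (SE 0.12, adjusted p = 0.00823) and 0.31 (SE 0.083, adjusted p = 0.0342). HHT1, HHT2, HHF1, HTA1, HTB1 and HTZ1 did not pass, with differences from -0.15 to 0.25, and HTA1 passed with the course as a block but not with 1 change per course (adjusted p = 0.0869). HTB2 (then at 0.42) and HTA2 (then at 0.24) were not called without the wild-type 30 min array, and HTB2 (then at 0.31) and HTA2 (then at 0.21) were not called without the 60 min array. HTA2 was also not called without 1 or more single cdc28-4 arrays. Some core histone genes are near-identical pairs that a probe set may not tell apart. Of 10 Mcm1 genes of the M/G1 boundary, 5 were positive and 0 negative, all 5 of them in replication licensing: CDC6 at 0.82, MCM7 at 0.72, MCM2 at 0.44, MCM3 at 0.34 and MCM4 at 0.33, the last 2 named after their values were seen. Without the wild-type 60 min array 0 of the Mcm1 list were called. FAR1, a Cdk inhibitor of the pheromone response, rose by 1.51 in cdc28-4 and 1.38 in wild type with no called difference (-0.14).

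**Figure D4:**
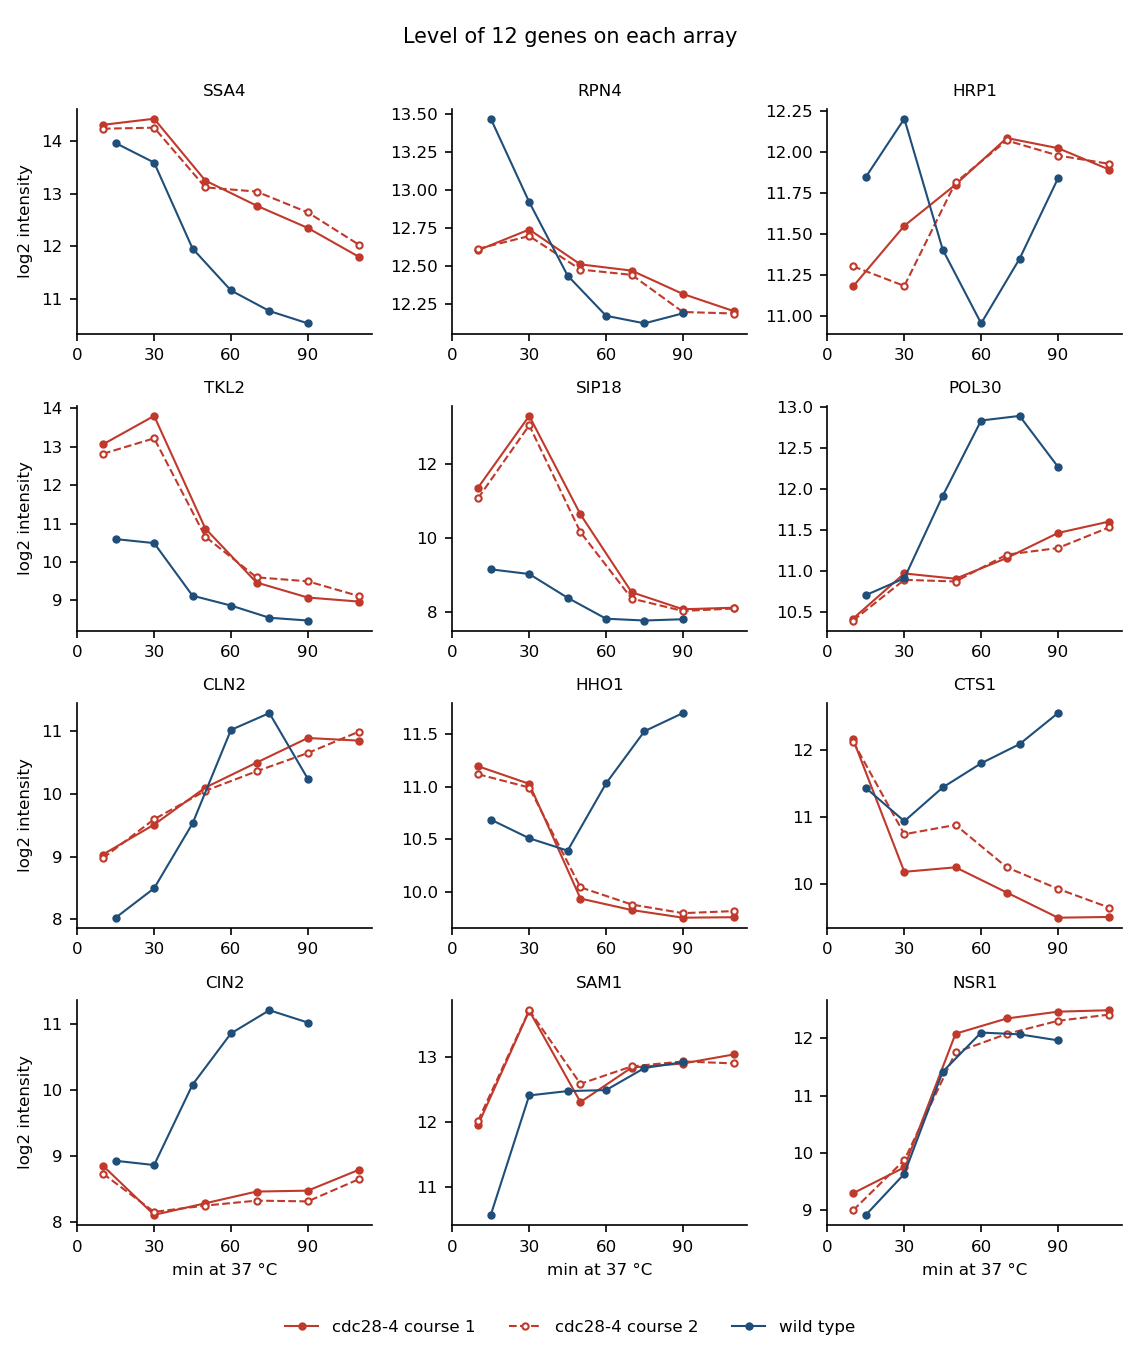
Log2 intensity of 12 genes on each array against minutes at 37 °C, with cdc28-4 course 1 (red, solid), course 2 (red, dashed) and wild type (blue); vertical axes differ between panels and the strains differ in labelling kit too. SSA4 falls lower in wild type, SIP18 peaks at 30 min in cdc28-4, POL30, CIN2 and HHO1 rise late in wild type, and NSR1 follows nearly the same course in both.

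Sulfur metabolism showed a transient at 30 min that was larger in cdc28-4. The median level of 30 genes of methionine synthesis and sulfate assimilation was 10.50, 12.30, 10.44 and 10.30 in cdc28-4 course 1 and 10.56, 12.29, 10.71 and 10.32 in course 2, against 10.55, 10.98, 10.53 and 10.29 in wild type. The 30 min arrays of cdc28-4 stood far above all others. Of the differences, 12 were positive and 0 negative (median 0.43), with 22 genes falling and 3 rising in cdc28-4, and 14 falling and 6 rising in wild type. With 30 min as the only start the median was 0.74 with 15 positive calls, and without the wild-type 15 min array 0.11 with 5 positive and 4 negative calls. Paired by course, 18 were positive and 2 negative.

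MET1, which makes a cofactor of sulfite reductase, was at 9.82, 12.26, 9.84 and 9.84 in cdc28-4 course 1 and 9.90, 12.15, 10.04 and 9.91 in course 2, against 10.03, 10.18, 9.89 and 9.85 in wild type. The peak at 30 min in cdc28-4 has no counterpart in wild type, and the difference was 0.89 (SE 0.10, adjusted p = 0.00284), called under all alternatives. SAM1, a synthase of S-adenosylmethionine, stood at 11.95, 13.71, 12.30 and 12.84 in cdc28-4 course 1 and 12.02, 13.72, 12.59 and 12.86 in course 2, against 10.57, 12.41, 12.47 and 12.49 in wild type. Its wild-type level rose after 15 min and stayed up, while in cdc28-4 it peaked at 30 min. It fell by 0.20 in cdc28-4 and rose by 0.99 in wild type, at 1.20 (SE 0.11, adjusted p = 0.00138), a call lost without the wild-type 15 min array. STR3, a cystathionine beta-lyase, differed by 0.85 (SE 0.25, adjusted p = 0.0488) and was called under 9 of 23 alternatives. Its sign turned without the wild-type 15 min array (-0.14). MET28, a transcription factor of the pathway, did not pass (0.40, adjusted p = 0.0915; called when paired).

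Of 19 purine genes, 7 differences were positive and 1 negative (median 0.30). GUA1, the GMP synthase, rose by 1.25 in cdc28-4 and 1.80 in wild type, a difference of 0.55 (SE 0.092, adjusted p = 0.0079). HPT1, which salvages purine bases, rose by 1.13 in cdc28-4 and 1.64 in wild type, and IMD3, an IMP dehydrogenase, by 0.70 in cdc28-4 and 1.16 in wild type. Without the wild-type 15 min array the median of the list was -0.03, and without the 60 min array IMD3 was at -0.01 and 1 positive call was left. Amino acid synthesis gave 9 positive and 2 negative calls of 42 (median 0.13), where 10.7% of all genes were positive and 9.36% negative. ARG1 and ARG4 of arginine synthesis were at 0.53 and 0.53. SER33, of serine synthesis, peaked at 30 min in cdc28-4 at 13.16 and 12.98, against 11.63 in wild type, and differed by 0.54 (SE 0.11, adjusted p = 0.0164). GCN4, the general activator of these genes, did not pass (0.19, adjusted p = 0.129). HPT1 (then at 0.15), ARG1 (then at 0.36) and SER33 (then at 0.16) were not called without the wild-type 15 min array, GUA1 (then at 0.26) was not called without the 30 min array, and GUA1 (then at 0.17), HPT1 (then at 0.30), ARG1 (then at 0.47), ARG4 (then at 0.52) and SER33 (then at 0.44) were not called without the 60 min array. ARG1 and ARG4 were also not called without 1 or more single cdc28-4 arrays.

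Cell wall integrity genes, which the kinase Slt2 controls, had 5 positive and 0 negative differences of 18 (median 0.34; 10 positive and 0 negative when paired by course). PST1, a cell wall protein gene induced by wall damage, stood at 12.51, 14.05, 12.65 and 11.71 in cdc28-4 course 1 and 12.36, 14.03, 12.72 and 11.99 in course 2, against 10.56, 12.10, 11.41 and 11.18 in wild type. It was highest at 30 min in all 3 courses, and came down by more than 1 log2 unit in cdc28-4. It differed by 0.93 (SE 0.12, adjusted p = 0.00382), SLT2 itself by 0.61 (SE 0.13, adjusted p = 0.0167) and KDX1, a relative of that kinase, by 0.66 (SE 0.15, adjusted p = 0.0211). PST1 (then at 0.16), SLT2 (then at 0.47) and KDX1 (then at 0.44) were not called without the wild-type 15 min array, and KDX1 (then at 0.68) was not called without the 60 min array. Without the wild-type 60 min array 2 of the list were called.

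Glucose-repressed genes fell in 16 of 22 cases in cdc28-4 and in 15 in wild type, with 6 positive calls and 1 negative call (median 0.25; 9 positive and 3 negative when paired by course). With interpolated times 1 positive call was left, and with 30 min as the only start 0. SUC2, invertase, was at 12.88, 9.01, 9.03 and 9.33 in cdc28-4 course 1 and 13.10, 9.26, 9.25 and 9.07 in course 2, against 11.62, 9.57, 9.21 and 9.56 in wild type. Only the first array of each course was high, so the window difference of 0.68 (SE 0.16, adjusted p = 0.0232) rests on samples taken at 10 min in one strain and 15 min in the other, and with 30 min as the only start it turned to -0.22. HXT5, a hexose transporter of slow-growing cells under background in the late wild-type window, differed by 1.48 (SE 0.36, adjusted p = 0.026). Respiratory genes had 4 negative calls and 1 positive call of 44 (median -0.16), no more than the shares over all genes, 9.36% negative and 10.7% positive. Among the negative ones were CYC1, cytochrome c, at -0.65 (SE 0.12, adjusted p = 0.0111), and COX7, a subunit of cytochrome oxidase, at -0.40 (SE 0.070, adjusted p = 0.00905). The list had 1 positive and 14 negative when paired by course, and negative calls ran from 1 (without the wild-type 15 min array) to 13 (without the wild-type 30 min array) over single arrays left out. CYC1 (then at -0.34) and COX7 (then at -0.20) were not called without the wild-type 15 min array, HXT5 (then at 1.39) was not called without the 30 min array, and HXT5 (then at 1.64) and COX7 (then at -0.23) were not called without the 60 min array.

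Several other lists had at most 3 called members each, against 20.1% called over all genes. In the phospholipid and fatty acid list (3 of 18) and the a-specific list (1 of 6) the share was near that over all genes. The iron regulon (16 genes) and the alpha-specific genes (4) had 0 calls by limma, with 1 gene of each list at an unadjusted p under 0.05, and the iron list had 5 positive and 1 negative when paired by course. Among 18 pheromone-induced genes the 1 call was FUS2, a cell fusion gene, at -0.52, and among 6 a-specific genes it was MFA1, the a-factor gene, at -0.52. Glycolysis and fermentation had 2 negative calls of 20, with HXK2, hexokinase, at -0.37, which rose by 0.42 in cdc28-4, against a change of 0.06 in wild type. Ergosterol synthesis had 1 positive call of 26, HMG2, an HMG-CoA reductase, at 0.32, and phospholipid and fatty acid synthesis had 2 positive and 1 negative of 18, with OPI3, of phosphatidylcholine synthesis, at 0.58 (SE 0.073, adjusted p = 0.00365). Phosphate genes had 1 call in each direction of 17, GDE1, which breaks down glycerophosphocholine, at 0.46 and VTC1, of polyphosphate synthesis, at -0.45. FUS2 (then at -0.37), MFA1 (then at -0.15) and HXK2 (then at -0.15) were not called without the wild-type 15 min array, HMG2 (then at 0.21) was not called without the 30 min array, HXK2 (then at -0.14) was not called without the 45 min array, and FUS2 (then at -0.52) was not called without the 60 min array. FUS2 and HMG2 were also not called without 1 or more single cdc28-4 arrays.

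Of the 107 genes called in opposite directions, the 5 that ranked highest by the smaller of their 2 changes were HRP1 and TAD2, which rose in cdc28-4 and fell in wild type, and EGT2, DBP2 and DIT2, which did the reverse. TAD2, a tRNA editing deaminase, had changes of 0.40 in cdc28-4 and -0.40 in wild type, a difference of -0.80 (SE 0.11, adjusted p = 0.00455). DBP2, an RNA helicase, was at 11.70, 8.91, 9.52 and 10.17 in cdc28-4 course 1 and 11.67, 8.82, 9.26 and 9.87 in course 2, against 9.26, 8.27, 8.74 and 9.64 in wild type. Its 10 min cdc28-4 arrays were over 1 log2 unit above all others, and with 30 min as the only start the difference was 0.08 and not called (adjusted p = 0.821). DIT2, a cytochrome P450 of spore wall formation, had changes of -0.41 in cdc28-4 and 0.61 in wild type, a difference of 1.02 (SE 0.097, adjusted p = 0.00138) called under all alternatives. DBP2 (then at 0.51) was not called without the wild-type 30 min array, and DBP2 (then at 0.54) was not called without the 60 min array.

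How the unequal sampling times are matched decides several lists. Interpolating cdc28-4 linearly to the wild-type times left 1005 calls, of which 813 were among the 1095, and 2 of the 1095 changed sign; a straight line between 10 and 30 min cannot follow a peak between them. With 30 min as the only start, 282 of the 1095 were called and 30 changed sign. The medians of the Msn2 and Msn4, trehalose and ribosome assembly lists moved to or across 0 under interpolation, while those of the Hsp70 and Hsp40 (-0.38), Hsp90 (-0.23), proteasome (-0.30), SBF (0.55), MBF (0.40) and daughter (0.67) lists kept their sign, as they did with 30 min as the only start (-0.26, -0.17, -0.19, 0.44, 0.41 and 0.67). Of the 120 called genes among the 154 named by rule, 27 were called under all 23 alternatives.

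**Figure D5:**
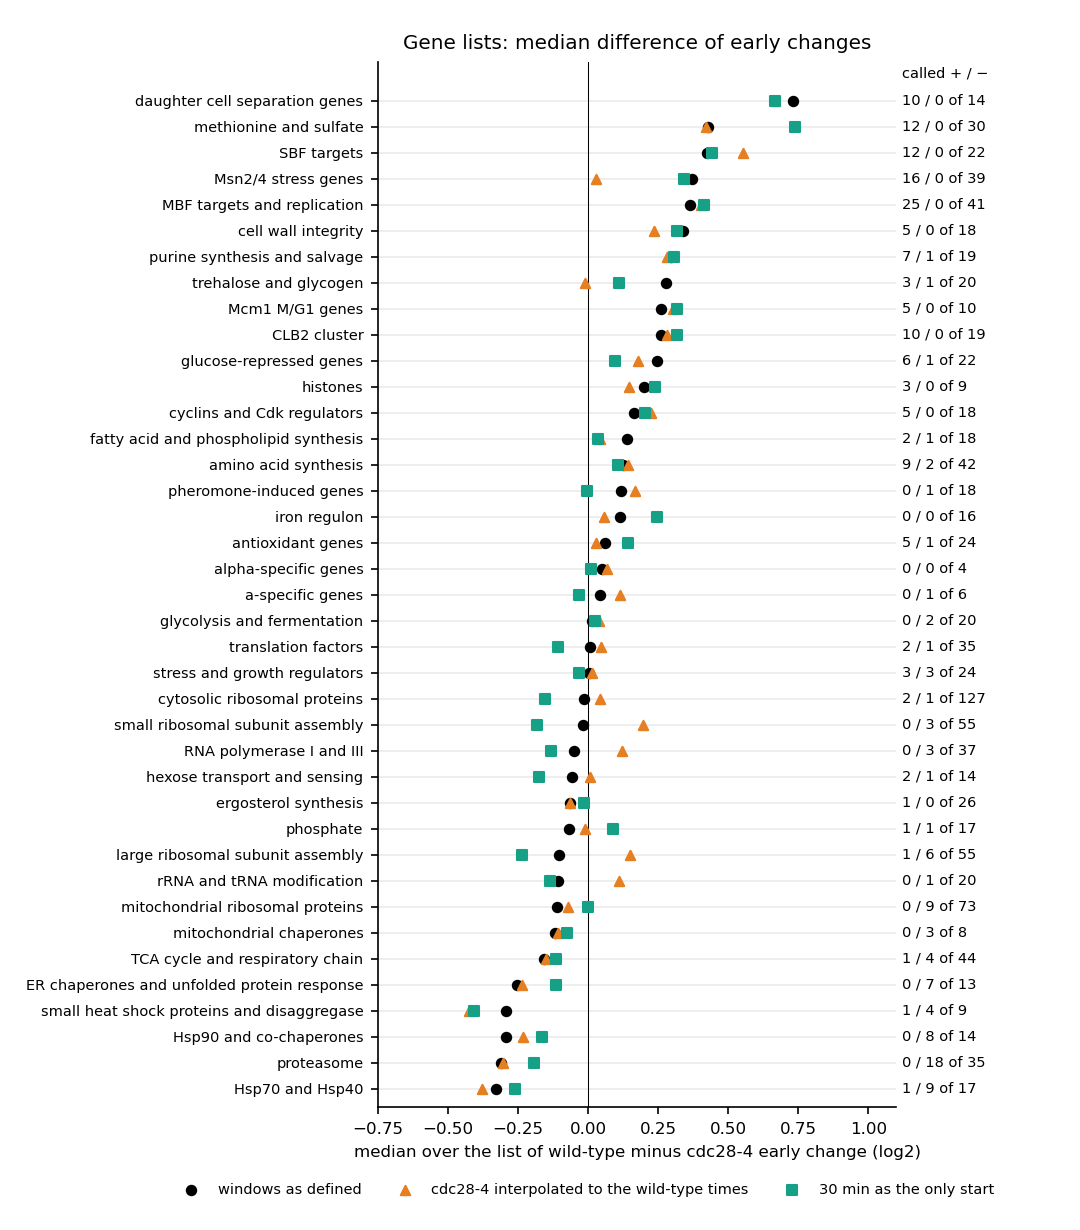
Median over each of the 39 gene lists of the wild-type minus cdc28-4 early change (log2), for the windows as defined (black circles), with cdc28-4 interpolated to the wild-type times (orange triangles) and with 30 min as the only start (green squares); figures at the right give positive and negative calls of the measured genes. Daughter, SBF and MBF lists lie right of 0 and the chaperone and proteasome lists left of it in all 3 settings, while the Msn2/4 triangle lies near 0. Markers that coincide hide one another, as for the daughter list.

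The same difference was then taken to a later window, 90 and 110 min in cdc28-4 and 75 and 90 min in wild type, against the same early windows, which both comparisons therefore share. It was called for 2123 genes (39.0%), with 985 positive (18.1%) and 1138 negative (20.9%). Proteasome genes had 32 negative calls of 35 (median -0.44), Hsp90 genes 8 of 14 (-0.34) and respiratory genes 32 of 44 (-0.43). SSA4 reached changes of -2.10 in cdc28-4 and -3.13 in wild type. Daughter genes had 13 positive calls of 14 (median 1.37), CLB2 cluster genes 16 of 19 (0.63), histones 9 of 9 (0.72), SBF targets 19 of 22 and MBF targets 31 of 41. For HHO1 the changes were -1.31 in cdc28-4 and 1.02 in wild type, and for CTS1 -1.66 and 1.14. Msn2 and Msn4 targets had 16 positive and 6 negative calls (median 0.29), and small-subunit assembly genes 6 and 8 (median -0.03). In wild type HRP1 stood at 11.35 and 11.84 at 75 and 90 min, above its 60 min level, and its later changes were 0.65 in cdc28-4 and -0.43 in wild type.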

How the data were processed

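RNA of 12 samples was hybridised to Affymetrix Yeast Genome 2.0 arrays, 1 colour, and linear intensities per probe set were deposited by the authors. The package affy is listed in the submitters' processing notes. Its version, and how probe sets were summarised and arrays normalized, is not given in the sources used here. Per the labels' protocols, RNA came from hot acid phenol extraction and an RNeasy MinElute clean-up. Intensities were taken to log2 with no constant added. Only probe sets of 1 budding yeast gene were used, and where a gene had several, the one with the highest mean stood for it, leaving 5449 genes. Probe sets of fission yeast gave the background. No genome build is named in the sources used here, so no position or sequence is printed.

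limma 3.58.1 in R 4.3.3 fitted a mean for each strain and time, with eBayes, and tested the difference of early changes, two-sided, with Benjamini-Hochberg adjustment over all 5449 genes and a threshold of 0.05. The 4 residual degrees of freedom come from the cdc28-4 pairs of arrays, so each lone wild-type array is assumed to vary as those do. The labels call the cdc28-4 courses replicates without saying how they were cultured apart, and p-values measure only the spread between these arrays. Their number limits the precision. The replicate number marks the time course, and cdc28-4 arrays of 1 course deviated together from the mean of their time (correlations of 0.286 to 0.671 over 6 pairs of times), so the fit paired by course is given where it changes a call or a count. The same test was run on simulated data.

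The comparison, the 39 gene lists and the named genes were chosen with earlier results of these data known. Named by rule are the 10 largest differences in each direction with the same sign against each course and at least 1 window above background, up to 3 called members of each list, the 5 opposite changes ranked highest by the smaller of the strains' changes, in heat shock, stress, ribosome assembly, sulfur and cell cycle lists the uncalled member with the largest cdc28-4 change, and CDC28, BAR1, HSF1, MSN2, MSN4, SFP1, GCN4, the histones and the cyclins list. Alternatives were pairing by course, all 48 arrays, 1 change per course, both time matchings, 3 other scalings, a filter on dim genes, the mean of a gene's probe sets, a constant of 32 and leaving out each array.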

Additional observations from a re-analysis of the deposited data

Results flagged for a closer look

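Each value here is a difference that the limma test itself found between the strains' changes. The early change differed for 1095 genes. The changes of 107 genes were called in opposite directions in cdc28-4 and wild type.

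Among the genes named by rule, 6 rose in cdc28-4 and fell in wild type, with log2 differences, wild type minus cdc28-4, of -1.49 for HRP1, -1.31 for REC104, -1.10 for RNA14, -0.80 for TAD2, -0.69 for SNL1 and -0.55 for RPN8. SNL1, beside BAR1, was under background in wild type. A further 10 fell in cdc28-4 and rose in wild type: CIN2 at 1.70, SAM1 at 1.20, CLB1 at 1.03, DIT2 at 1.02, DBP2 at 1.00, EGT2 at 0.93, ALK1 at 0.81, WHI5 at 0.63, SER33 at 0.54 and GDE1 at 0.46. Of these genes, HRP1, REC104, RNA14, CIN2, DIT2, EGT2, ALK1 and GDE1 were called under all 23 alternatives. In cdc28-4, CIN2 lay near background, with its highest level at 10 min, and it rose from 30 min on in both courses. The calls of TAD2, WHI5 and CLB1 were lost with 30 min as the only start, that of RPN8 with that start and without the wild-type 60 min array, and that of SNL1 without that array. Those of DBP2, SAM1 and SER33 were lost under at least 1 choice of times or arrays, and the early windows of these 3 genes hold a level at 10 or 30 min in cdc28-4 above every later array of that strain.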

How the results depend on the processing

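The count of called genes depended most on the start of the early window, on the pairing and on the wild-type 60 min array. Paired by course, 1825 genes were called, 936 positive and 889 negative, against 1241, 682 and 559 with 1 early change per course. With 30 min as the only start there were 312, 237 and 75. Centred on the fission yeast probe sets, 775 genes were called, with 389 positive. Leaving out 1 array at a time, calls ran from 365 to 1500 in all, from 239 to 720 positive and from 126 to 780 negative, lowest without the wild-type 60 min array and highest without the wild-type 45 min array. The other alternatives left these counts within 1.5 times, and the counts of each strain's own changes and of the later window stayed within that range under every alternative run on them. Without the array of 50 min of course 1, or that of 70 min of either course, in cdc28-4, the total also moved by more than 1.5 times (720, 671 and 662).

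Among the 120 named genes that were called, the sign turned for 9. With 30 min as the only start, PRT1 was at -0.00603, RPL27B at -0.02351 and SUC2 at -0.221. Leaving out 1 array at a time, ranges of called genes crossed 0 for IMD3 (-0.01181 to 0.9176), PAH1 (-0.6466 to 0.05566), RCL1 (-0.9337 to 0.2709), RPC31 (-0.802 to 0.08891), RPL27B (-0.2633 to 1.154), SPB1 (-0.7023 to 0.02395), STR3 (-0.1437 to 1.838) and SUC2 (-0.3401 to 1.706). Differences that did not pass also crossed 0 in several cases, as for CLN1, ARX1 and NSR1. The cause was not tested. Pairing by course moved list counts by more than 1.5 times also for RNA polymerase I and III (7 positive and 3 negative) and stress and growth regulators (7 and 3), and for lists with very few calls. List medians of glycolysis, these regulators and translation factors, all near 0, turned sign with the scaling. Signal near background limits the genes named as such, and 1 wild-type course limits every difference.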
